A study of Mus musculus with 4 samples.

Results

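The genes described here encode collagens, laminins and the fibre-forming proteins of the extracellular matrix, measured in mouse fetal liver on day 17 of gestation. They were taken by symbol: every collagen chain, every laminin chain, the fibulins, fibrillins and nidogens, and Fn1, Sparc and Eln, where a probe set of the array was annotated to exactly 1 gene. This gave 62 genes, represented by 122 probe sets, of the 18193 genes with such a probe set, and each gene was read from its brightest probe set. Both groups came from C57BL/6 females aged 6 to 8 weeks that were mated with Sox17+/- males over 3 months old. The wildtype group held 2 livers carrying no mutant allele and the Sox17+/- group held 2 livers heterozygous for a mutant Sox17 allele, with no treatment in either. The liver was freed of the biliary system before RNA was extracted. Each of the 4 samples was read on 1 single-colour Affymetrix array. How the allele was made, the sex of the fetuses, and whether a sample was 1 fetus or a pool are not stated in the labels used here. The p-values therefore measure only the spread between these samples.

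Interstitial collagens such as types I and III assemble into fibrils that give tissues tensile strength, while collagen IV, laminins and nidogens form the thin sheets, called basement membranes, on which epithelial and endothelial cells rest. In the liver, stellate cells and portal fibroblasts are the main known makers of fibrillar collagen, and the sinusoids are unusual in having a sparse matrix in place of a continuous basement membrane. Elastic fibres consist of elastin laid down on a scaffold of fibrillin microfibrils with the help of fibulins, and are found mainly around vessels of the portal tract.

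The arrays had been scaled to a common trimmed mean of 500, and their median signals lay between 84.7 and 103. Sox17, the targeted gene, had signals of 244 and 264 on the wildtype arrays and 139 and 124 on the Sox17+/- arrays (brighter of its 2 probe sets). Whether this probe set lies in the altered part of the gene is not stated in the labels used here. The ratio of 3' to 5' signal of Actb, a sign of RNA integrity, was 1.95 on wildtype array 1 and between 1.20 and 1.43 on the others. The same ratio of Tfrc was 3.38 and 2.31 in wildtype and 4.31 and 2.75 in Sox17+/- liver, highest on Sox17+/- array 1. The brightest probe set reached 56988 (wildtype) and 56860 (Sox17+/-) in the replicates numbered 1, but 34407 (wildtype) and 32468 (Sox17+/-) in the replicates numbered 2, so differences within each pair of same-numbered arrays are given beside the main results. Markers of other cell types were read from 9 lists. The hepatocyte marker Alb had signals between 22768 and 42354, and 0 of the 6 tested hepatocyte markers differed without overlap. Of the markers of other organs, 8 of 10 markers of skeletal and heart muscle, 6 of 7 of cartilage and 4 of 6 of pancreas were too dim to be tested. The single tested cartilage marker, Comp, had 83.3 and 94.1 in wildtype and 213 and 136 in Sox17+/- liver, above wildtype without overlap (log2 difference 0.84, SE 0.27), the same direction as Lamb1 and collagen VI below, and its part in those values was not tested. The pancreas markers Cela1 (1142 and 994 against 1405 and 1028) and Prss2 and the muscle markers Acta1 and Actc1 overlapped. In whole tissue, fewer cells of a type and less RNA per cell cannot be told apart.

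Of the tested matrix genes, Fbln5, Lamb1, Col6a1 and Col6a3 had the smallest unadjusted limma p-values, and none passed the test after adjustment. Probe sets in the dimmer 50% of the array were left out of testing, which left 36 of the 62 genes. Signals were compared as log2(signal + 16) with limma, with the Benjamini-Hochberg adjustment taken over the 22519 probe sets tested. At an adjusted p under 0.05, limma called 0 of the 36 genes, against 0 of all tested probe sets (0%), and every tested member had a limma adjusted p of 0.9999. At an unadjusted p under 0.05, limma gave 3 matrix genes as higher (Lamb1, Col6a1 and Col6a3) and 1 as lower (Fbln5). The background for that count was 1.61% of all tested genes higher and 2.54% lower. Over the whole array 923 probe sets (4.1%) had an unadjusted limma p under 0.05. Both Sox17+/- arrays lay above both wildtype arrays for 11 of the 36 genes (30.6%, against 14.5% of all 11691 tested genes) and below both for 9 (25%, against 18.6%). Without wildtype array 1 the count above was 19 (against 30.3% of all tested genes), and without wildtype array 2 the count below was 16 (against 37.7%). The median log2 difference over the 36 genes was 0.13, against -0.02 over all tested genes. None of the 36 log2 differences changed sign under median centring or quantile normalization.

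**Figure D1:**
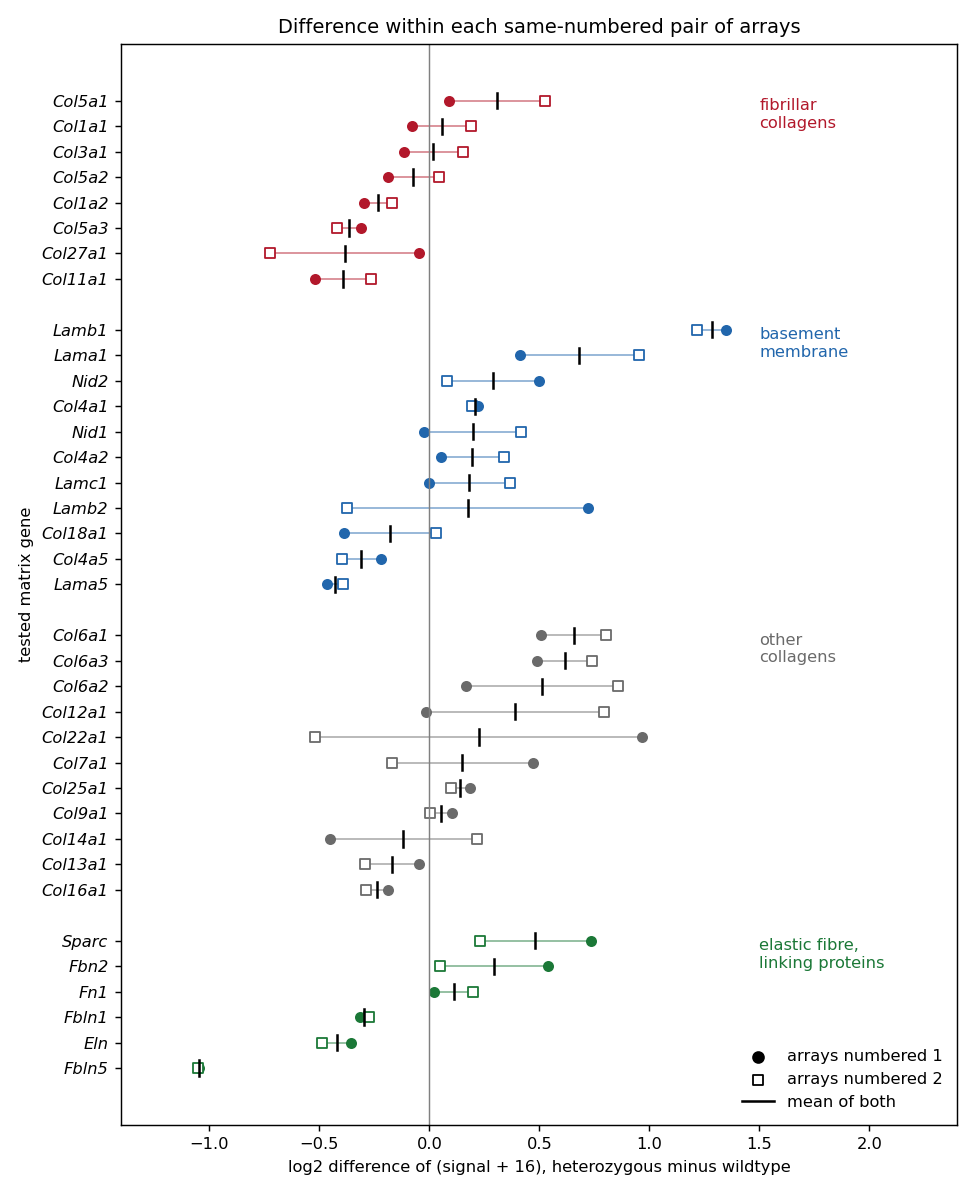
Log2 difference of (signal + 16), Sox17+/- minus wildtype, for the 36 tested matrix genes, with filled circles for the arrays numbered 1, open squares for the arrays numbered 2 and a black tick for their mean. Lamb1 lies at 1.28 and Fbln5 at -1.05 with both pairs close together, and Col6a1, Col6a2 and Col6a3 lie to the right of 0 in both pairs.

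The basement membrane genes were led by Lamb1, which encodes the beta chain of most laminin trimers in the fetus. Its brightest probe set gave signals of 533 and 398 on the wildtype arrays and 1382 and 948 on the Sox17+/- arrays. The second probe set gave 221 and 165 against 533 and 346. The third gave 139 and 92.1 against 263 and 190.2. On all 3 the Sox17+/- arrays lay above the wildtype arrays with no overlap. The log2 differences were 1.28 (SE 0.29), 1.11 (SE 0.30) and 0.89 (SE 0.29), the first equal to 2.43-fold on the log2(signal + 16) scale, with unadjusted limma p-values of 0.0057, 0.012 and 0.025. The remaining probe set was dim and gave 5.37 and 18.3 against 18.2 and 7.84, and its arrays overlapped. The difference of the brightest probe set stayed between 1.01 and 1.55 when any 1 array was left out.

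The bases before the annotated 5' end of Lamb1, the basement membrane gene with the largest tested difference, are given from RefSeq (GRCm38.p6, chr12:31265043-31265145, plus strand, 103 bases, 5' to 3'). Capitals mark a match to the CCAAT box, searched on both strands.
Lamb1: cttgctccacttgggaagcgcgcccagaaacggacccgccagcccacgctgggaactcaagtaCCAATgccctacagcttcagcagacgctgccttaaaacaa
The motifs searched were CCAAT, the GC box GGGCGG, the TATA box TATAAA, the core AACAAT bound by SOX factors and the core ACGTG bound by hypoxia-inducible factors, none of which contains another. The CCAAT match was the only one in this stretch. Among 32851 RefSeq promoter windows, 13.9% held that motif in their first 103 bases, the end far from the start site. The Lamb1 stretch fills that part of its own window, whose start site lies downstream of the annotated 5' end. The share is therefore not one for bases directly before a start.

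Of the other laminin genes, Lamc1, the common gamma chain, had signals of 493 and 394 on the wildtype arrays and 492 and 513 on the Sox17+/- arrays. The groups overlapped, and the log2 difference was 0.18 (SE 0.22). Lama1, an alpha chain of early embryonic basement membranes, had 112 and 56.8 against 154 and 125, a log2 difference of 0.68 (SE 0.33) without overlap. On the wildtype arrays alone Lama1 fell below the brightness cut, so it was tested only because its Sox17+/- signals were higher. Lama5, the alpha chain found in many mature basement membranes, ran the other way, with 169 and 170 against 118 and 126 and a log2 difference of -0.43 (SE 0.20). Its next probe set, which was dim, gave 148 and 87.5 against 75.7 and 27.0, also without overlap. Lamb2, an alternative beta chain, had 80.8 and 183 against 144 and 138, and its pair differences of 0.72 and -0.37 had opposite signs. Lama4, the alpha chain typical of vessel walls, was too dim to be tested. Its brighter probe set gave 30.7 and 21.3 against 105 and 125, without overlap, while its other probe set gave 22.2 and 54.7 against 32.2 and 16.4. So the alpha chains differed in direction among themselves while the arrays of the gamma chain overlapped.

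Col4a1 and Col4a2, the chains of the main collagen IV network, are neighbouring genes read in opposite directions from a shared promoter region. Col4a1 had signals of 1617 and 1527 in wildtype and 1889 and 1750.3 in Sox17+/- liver, and Col4a2 had 1121 and 973 against 1163 and 1234. In both genes the Sox17+/- arrays lay above the wildtype arrays by a small step, with log2 differences of 0.21 (SE 0.20) and 0.20 (SE 0.21), each within about 1 standard error of 0. The second tested probe set of Col4a1 also gave 0.21, with overlap. Col4a5, an X-linked chain of specialised basement membranes, had 107 and 137 against 89.8 and 99.9, a log2 difference of -0.31 (SE 0.22). Its X-linked neighbour Col4a6, which was dim, had 42.5 and 70.3 against 119 and 91.1. Xist, which is expressed from the inactive X chromosome of females, had signals of 4681, 7608 and 4459 on both wildtype arrays and Sox17+/- array 1 and 50.9 on Sox17+/- array 2, and its part in the values of these X-linked genes was not tested.

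Among the proteins that tie these sheets together, Nid1, which links laminin to collagen IV, had 3010 and 2244 against 2963 and 3000.0 (log2 difference 0.20, SE 0.23). Nid2, its relative, had 311 and 424 against 446 and 449 (0.29, SE 0.24). The nidogen groups overlapped for Nid1, also on its second tested probe set (-0.11, SE 0.27), and did not for Nid2. Col18a1, a collagen of vascular and epithelial basement membranes that carries the endostatin domain, had 3728 and 2349 against 2847 and 2400.5, and its direction turned without wildtype array 1 (log2 difference -0.18 with all arrays and 0.15 without it). Its second tested probe set had 3296 and 2449 against 2238 and 2221, below wildtype without overlap (-0.35, SE 0.24). Of the 20 basement membrane genes measured, 9 were too dim to test: Col4a3, Col4a4, Col4a6, Col15a1, Lama2, Lama3, Lama4, Lamb3 and Lamc3.

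**Figure D2:**
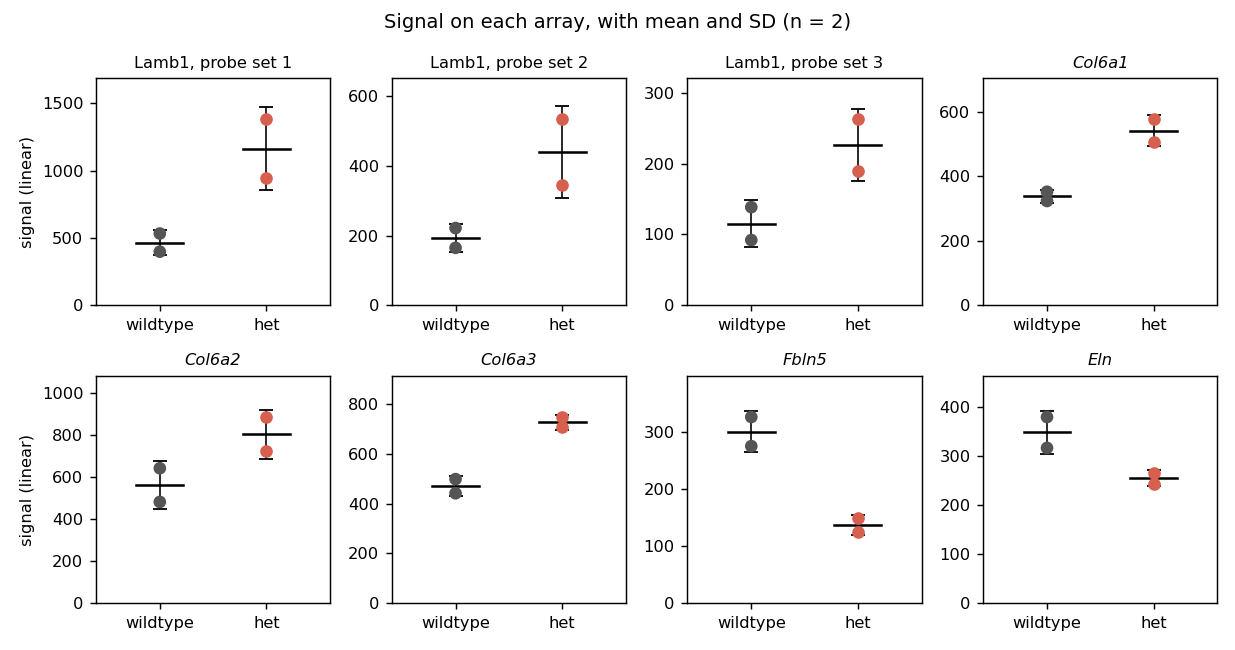
Linear signal on each array (points) for the 3 brighter probe sets of Lamb1 and the brightest probe set of Col6a1, Col6a2, Col6a3, Fbln5 and Eln, with the mean (bar) and SD of the 2 arrays of each genotype. In every panel the 2 Sox17+/- arrays lie on one side of the 2 wildtype arrays, above them for Lamb1 and the collagen VI genes and below them for Fbln5 and Eln.

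Of the 8 fibrillar collagens tested, 1 lay above and 4 lay below wildtype without overlap (12.5% and 50%, against 14.5% and 18.6% of all tested genes), and 0 passed the limma test. Col3a1, the chain of type III collagen, had signals of 4711 and 4087 on the wildtype arrays and 4347 and 4545 on the Sox17+/- arrays. Its groups overlapped and the log2 difference was 0.02 (SE 0.21), and its second probe set overlapped too (0.13, SE 0.31). Col1a1 and Col1a2 encode the chains of type I collagen, the main collagen of scar and bone. Col1a1 had 711 and 787 against 672 and 901, with overlap (log2 difference 0.06, SE 0.24). Col1a2 had 2000.4 and 1830.4 against 1624 and 1628, below wildtype without overlap (log2 difference -0.23, SE 0.20). Its second probe set gave 1042 and 895 against 926 and 929, where the groups overlapped. The second probe set of Col1a1 gave 286 and 228 against 218 and 187, below wildtype without overlap (-0.32, SE 0.23). For each type I chain, then, 1 of the 2 tested probe sets lay below wildtype and the other overlapped.

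Type V collagen starts fibrils and sets their width, and its chains differed in direction. Col5a1 had 1434 and 1205 against 1526 and 1743, a log2 difference of 0.31 (SE 0.22). Col5a2 had 977 and 767 against 855 and 791 (-0.07, SE 0.22), and Col5a3, the rarer chain, had 112 and 102 against 87.6 and 72.4 (-0.36, SE 0.21). On these probe sets Col5a1 lay above wildtype and Col5a3 below it without overlap, and Col5a2 overlapped. The other tested probe sets of Col5a1 both overlapped, 1 with 1045 and 882 against 997 and 1344 (0.27, SE 0.25) and 1 with 508 and 456 against 317 and 690.4 (-0.04, SE 0.39). The second probe set of Col5a2 overlapped as well (-0.06, SE 0.24). Col11a1, a chain of the thin fibrils of cartilage, had 173 and 192 against 116 and 157 (-0.39, SE 0.23), and a second probe set gave 169 and 158 against 114 and 121. Col27a1, a fibrillar collagen of cartilage and other tissues, had 475 and 555 against 460 and 330.2 (-0.38, SE 0.25), and its second probe set gave 222 and 108 against 87.5 and 57.0 (-0.98, SE 0.38). Both probe sets of Col11a1 and of Col27a1 were therefore lower on the Sox17+/- arrays. The second probe set of Col27a1 passed the brightness filter only through its wildtype arrays. Col2a1, Col11a2 and Col24a1 were too dim to test, and all 3 overlapped.

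The fibrillar collagens and the basement membrane genes were set side by side. The median log2 difference was -0.15 over the 8 fibrillar collagens and 0.20 over the 11 basement membrane genes, a gap of -0.35, against -0.02 over all tested genes. Within the arrays numbered 1 the medians were -0.15 and 0.05, and within those numbered 2 they were -0.06 and 0.19, so the gap was -0.20 and -0.26. The gap lay between -0.37 and -0.34 when any 1 array was left out. Without wildtype array 2 the median of the basement membrane genes alone was 0.09 and that of the fibrillar collagens -0.26. With all measured members counted, the dim ones included, the medians were -0.07 and 0.18, a gap of -0.25. Among the 11 basement membrane genes 5 lay above wildtype and 2 below without overlap (45.5% and 18.2%, against 14.5% and 18.6% of all tested genes). The counts and medians depend on the brightness filter. Lama1, above wildtype, passed it only through its Sox17+/- arrays. Col5a3, a fibrillar collagen below wildtype, passed it only through its wildtype arrays. The members were chosen with earlier results of these arrays known and are not replicates, so the gap is a description and was given no test. Eln lay below and Fbn2 above the middle values of the fibrillar group, so adding both could only leave its median at -0.15.

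**Figure D3:**
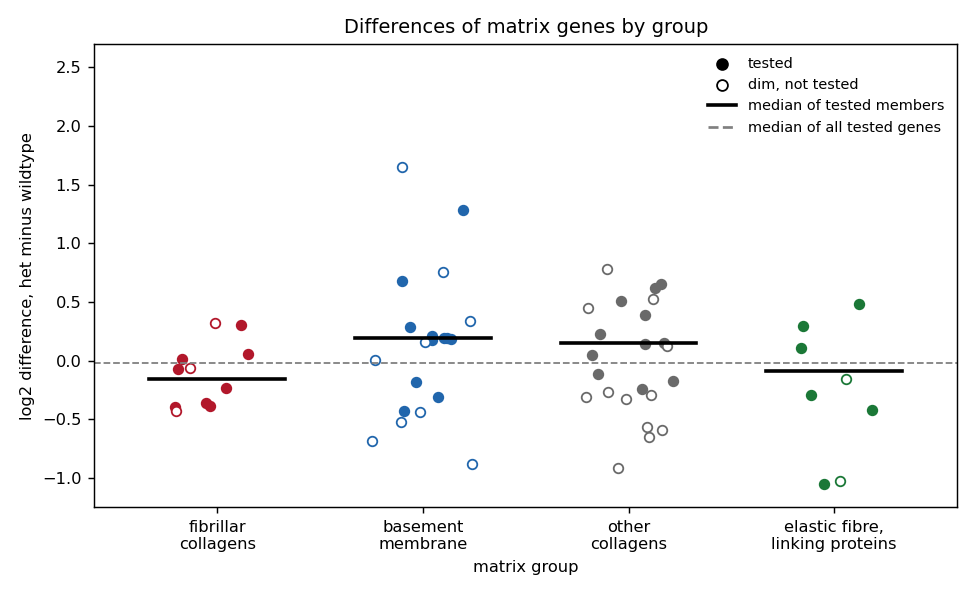
Log2 difference of (signal + 16), Sox17+/- minus wildtype, for each of the 62 matrix genes by group, filled where the gene was tested and open where it was too dim, with a bar at the median of the tested members. The fibrillar collagens have their median at -0.15 and the basement membrane genes at 0.20, with the dashed line of all tested genes at -0.02, and the points of the groups overlap.

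Markers of the cells that make these proteins were read beside them. Of 14 tested endothelial markers, 5 lay above and 1 below wildtype without overlap (35.7% and 7.14%, against 14.5% and 18.6% of all tested genes). Their summed signal was 12132 and 9600 in wildtype and 11967 and 11694 in Sox17+/- liver, where the groups overlapped. Of 9 tested stellate cell markers (of 12 listed), 3 lay above wildtype and 0 below (33.3% and 0%, against the same 14.5% and 18.6%), and the summed signal over the 11 measured was 7863 and 7453 against 7315 and 9135. The stellate cell marker Des, an intermediate filament protein, had 125 and 69.7 against 251 and 195, and Ngfr, a neurotrophin receptor, had 117 and 208 against 341 and 373. Lrat, which stores vitamin A in stellate cells, had 266 and 229 against 338 and 274. These were the 3 stellate markers without overlap. The other 6 overlapped, with log2 differences of 0.02 for Reln and 0.03 for Colec11, 0.13 for Pdgfrb, 0.18 for Pdgfra, -0.01 for Hand2 and -0.31 for Lhx2. Of the endothelial markers, Lyve1 (0.28), Esam (0.41), Pecam1 (0.47), Kdr (0.12) and Tie1 (0.10) lay above wildtype and Tek (-0.56) below it. For Kdr and Tie1 the difference was smaller than its SE of 0.20. The other endothelial markers overlapped, with log2 differences between -0.23 (Egfl7) and 0.21 (Flt1). The part of these cells in the values of Lamb1 and collagen VI was not tested.

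The chains of collagen VI, which assembles into beaded filaments around cells and next to basement membranes, were higher on both Sox17+/- arrays in all 3 genes tested. Col6a1 had signals of 352 and 323 on the wildtype arrays and 507 and 577 on the Sox17+/- arrays, a log2 difference of 0.66 (SE 0.21) or 1.58-fold. Col6a2 had 642 and 481 against 722 and 886 (0.51, SE 0.25), and its second probe set had 411 and 487 against 713 and 799 (0.73, SE 0.21). Col6a3 had 499 and 442 against 707 and 749 (0.62, SE 0.20), or 1.53-fold. None of these genes overlapped between the groups on any tested probe set. The unadjusted limma p-values were 0.023 for Col6a1, 0.028 for Col6a3 and 0.091 for Col6a2. Leaving out any 1 array kept Col6a1 between 0.57 and 0.75, Col6a2 between 0.31 and 0.71 and Col6a3 between 0.53 and 0.70. The related chains Col6a4 and Col6a5 were too dim to test and overlapped.

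The bases before the annotated 5' ends of the 3 genes are shown because their products join in 1 protein and their signals ran together. They are from RefSeq (GRCm38.p6), 5' to 3' on the minus strand, at chr10:76726045-76726294 for Col6a1, chr10:76623631-76623880 for Col6a2 and chr1:90844002-90844221 for Col6a3, and capitals mark a GC box.
Col6a1: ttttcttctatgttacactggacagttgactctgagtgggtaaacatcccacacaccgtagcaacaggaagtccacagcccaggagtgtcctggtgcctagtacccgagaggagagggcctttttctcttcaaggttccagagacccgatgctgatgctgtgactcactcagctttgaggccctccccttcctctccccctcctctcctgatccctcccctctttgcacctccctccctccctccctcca
Col6a2: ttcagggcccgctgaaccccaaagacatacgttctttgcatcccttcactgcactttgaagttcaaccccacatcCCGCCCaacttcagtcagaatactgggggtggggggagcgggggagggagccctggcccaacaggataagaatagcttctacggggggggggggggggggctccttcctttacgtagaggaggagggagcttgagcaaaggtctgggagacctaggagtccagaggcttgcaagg
Col6a3: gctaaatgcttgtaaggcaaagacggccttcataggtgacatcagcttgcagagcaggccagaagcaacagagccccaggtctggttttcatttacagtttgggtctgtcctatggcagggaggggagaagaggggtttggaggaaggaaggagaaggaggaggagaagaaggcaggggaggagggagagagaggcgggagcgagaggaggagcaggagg
Of the 5 motifs searched, a single match was found, to the GC box on the reverse strand (CCGCCC) before Col6a2. Among all RefSeq windows 32.7% held the GC box in the same 250 bases. No motif of the 5 was shared by the 3 stretches.

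Of the 11 tested collagens outside the fibrillar and basement membrane groups, 3 lay above and 0 below wildtype without overlap. These shares were 27.3% and 0%, against 14.5% and 18.6% of all tested genes. The 3 were the collagen VI genes above, and the remaining 8 overlapped between the groups. Col14a1, which decorates the surface of fibrils, had 2319 and 2051 against 1693 and 2383 (log2 difference -0.12, SE 0.25). Col12a1, a relative of it, had 171 and 74.7 against 169 and 141 (0.39, SE 0.38). Col16a1, another fibril-associated collagen, had 302 and 215 against 263 and 174 (-0.24, SE 0.30). All 3 of these fibril-associated collagens overlapped between the genotypes, as did the second tested probe sets of Col14a1 (-0.34, SE 0.36) and Col12a1 (-0.15, SE 0.26). The log2 differences of the transmembrane collagens Col13a1 and Col25a1, the anchoring fibril collagen Col7a1, the junction collagen Col22a1 and the cartilage collagen Col9a1 lay between -0.17 and 0.22. Another 12 collagens of this group were too dim to test, among them Col8a1, Col8a2, Col10a1, Col17a1 and Col19a1. Over all 26 dim matrix genes 3 lay above and 6 below wildtype without overlap, and 32.5% of all dim genes did not overlap in either direction.

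Genes of the elastic fibre differed in direction, and Fbln5 had the largest difference downward of the tested matrix genes. Fbln5 encodes a fibulin that binds tropoelastin and is needed for elastic fibre assembly. Its signals were 275 and 326 on the wildtype arrays and 125 and 149 on the Sox17+/- arrays, so both were well below wildtype. The log2 difference was -1.05 in each pair (SE 0.22), or 2.07-fold lower, with an unadjusted limma p of 0.0044. Its dim second probe set gave 77.0 and 68.9 against 55.2 and 16.2, also without overlap. Without any 1 array the difference lay between -1.17 and -0.93. Eln, which encodes tropoelastin itself, had 317 and 380.4 against 244 and 267 (-0.42, SE 0.21), and Fbln1, a fibulin of vessel walls and basement membranes, had 268 and 285 against 212 and 233 (-0.30, SE 0.20). Both lay below wildtype without overlap, though the dim second probe set of Eln overlapped and the second tested probe set of Fbln1 lay above wildtype, with 102 and 122 against 159 and 129 (0.32, SE 0.22). Fbn2, the fibrillin of fetal microfibrils, ran the other way with 140 and 164 against 210.3 and 170.1 (0.29, SE 0.22).

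The bases before the annotated 5' end of Fbln5 are given for the same reason as those of Lamb1 (RefSeq, GRCm38.p6, chr12:101819120-101819369, minus strand, 250 bases, 5' to 3'). Capitals mark the matches, 1 CCAAT box and 2 GC boxes on the reverse strand.
Fbln5: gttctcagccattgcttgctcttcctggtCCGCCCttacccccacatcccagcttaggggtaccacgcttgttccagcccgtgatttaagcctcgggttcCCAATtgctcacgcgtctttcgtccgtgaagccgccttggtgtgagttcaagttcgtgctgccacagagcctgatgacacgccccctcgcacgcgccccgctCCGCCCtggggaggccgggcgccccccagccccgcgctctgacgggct
In this window 33.8% of all RefSeq promoter windows held the CCAAT box and 32.7% the GC box. A search of the same kind gave 0 matches to AACAAT in the stretches before Lamb1, the 3 collagen VI genes and Fbln5. Between 4.47% and 9.42% of windows held it in their first bases over the same lengths.

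Sparc and Fn1 link cells to the matrix. Sparc, a collagen-binding glycoprotein, had signals of 3752 and 3730.1 in wildtype and 6252 and 4377 in Sox17+/- liver, without overlap (log2 difference 0.48, SE 0.25). Its second probe set gave 3524 and 1631 against 3505 and 2741, where the groups overlapped. Fn1, fibronectin, which hepatocytes also secrete into plasma, had 8775 and 7505 against 8914 and 8625 (0.11, SE 0.21), with overlap. The second tested probe set of Fn1 had 60.4 and 187 against 182 and 268, also with overlap (0.93, SE 0.50). Fbln2 and Fbln7 were too dim to test and overlapped.

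Agreement between probe sets of one gene is a check on the probe sets alone, since all of them read the same 4 samples. Of the 17 matrix genes with more than 1 tested probe set, 12 had all of them in 1 direction and 5 had them in both (Col1a1, Col5a1, Col12a1, Fbln1 and Nid1). The median range between probe sets of a gene was 0.23 on the log2 scale. The share of agreement over all genes of the array was not taken.

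**Figure D4:**
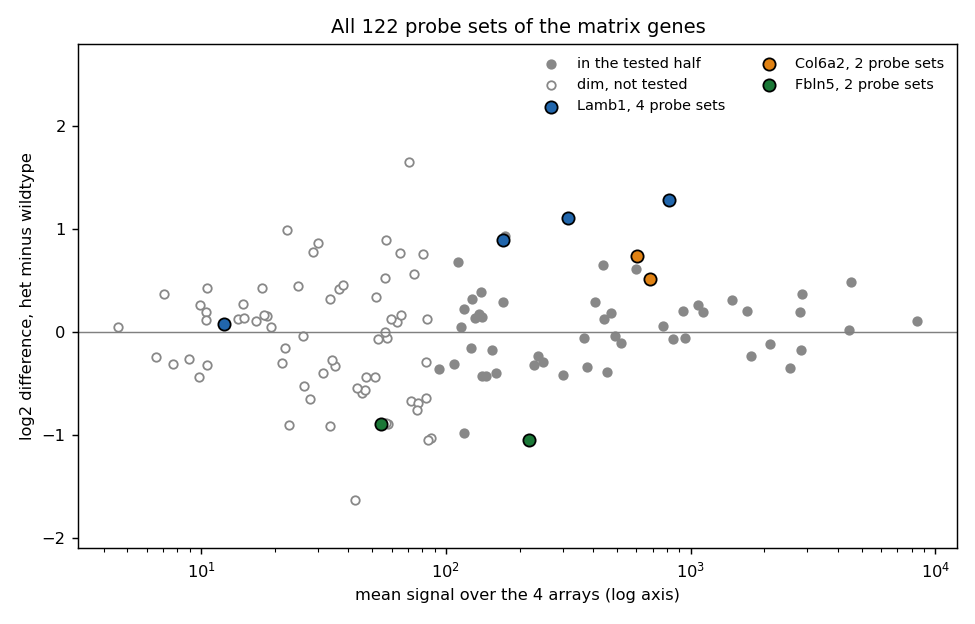
Log2 difference of (signal + 16), Sox17+/- minus wildtype, of each of the 122 matrix probe sets against its mean signal over the 4 arrays (log axis), filled where tested and open where dim. The 3 brighter probe sets of Lamb1 lie between 0.89 and 1.28, both of Col6a2 at 0.51 and 0.73, and Fbln5 at -1.05 and -0.89, while the dim probe sets spread widely on both sides of 0.

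Markers of cells around elastic fibres were read beside Fbln5 and Eln. Of the 10 portal fibroblast and smooth muscle markers, 6 were tested, and 1 (Rgs5) lay above and 1 (Acta2) below wildtype without overlap (16.7% each way, against 14.5% and 18.6% of all tested genes). Rgs5, a marker of pericytes and smooth muscle, had 77.7 and 33.7 against 354 and 228, the largest difference of the list (log2 difference 2.14, SE 0.39). Their summed signal was 2421 and 2301 in wildtype and 2376 and 2170 in Sox17+/- liver. Thy1, a marker of portal fibroblasts that was too dim to test, had 112 and 91.0 against 26.8 and 22.4, and Tagln, an actin-binding protein of smooth muscle, had 248 and 151 against 170 and 77.8. Acta2, smooth muscle actin, had 1397 and 1383 against 1323 and 1164 (-0.16, SE 0.20). Tagln overlapped, as did Smtn (0.06), Notch3 (-0.01) and Cspg4 (0.13), so the tested markers lay on both sides of wildtype. The brightness filter used the mean over all 4 arrays. Rgs5, dim in wildtype, was therefore tested, and Thy1, dim in Sox17+/- liver, was not. Of the other dim markers, Myh11 lay below wildtype without overlap (58.8 and 90.8 against 4.78 and 48.1). Cnn1 lay above (11.1 and 9.80 against 16.8 and 17.0), and Gli1 overlapped. Of 5 tested mesothelial markers 0 lay above wildtype and 2 below (0% and 40%, against the same shares), Upk3b with 179 and 232 against 114 and 152 and Upk1b with 157 and 164 against 146 and 111. The others tested overlapped, with log2 differences of 0.17 for Krt18, 0.18 for Gpm6a and -0.15 for Cdh11. Of the dim ones, Lrrn4 and Msln lay below wildtype and Wt1 overlapped. The part of these cells in the values of the elastic fibre genes was not tested.

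The other genes of matrix formation were taken from 6 lists, and 0 members of any list passed the limma test after adjustment (lowest adjusted p 0.9999 in each list). Of 20 tested genes of collagen processing and crosslinking, 5 lay above and 3 below wildtype without overlap (25% and 15%, against 14.5% and 18.6% of all tested genes), with a median log2 difference of -0.01. At an unadjusted limma p under 0.05 there was 1 in each direction (against 1.61% of all tested genes higher and 2.54% lower). Plod2, the lysyl hydroxylase that prepares collagen for stable crosslinks, had 89.0 and 129.7 in wildtype and 1058 and 525 in Sox17+/- liver. Both Sox17+/- arrays were several times above wildtype, by 6.16-fold on the log2(signal + 16) scale (log2 difference 2.62, SE 0.39). P4ha1, a prolyl hydroxylase that stabilises the collagen helix, had 574 and 485 against 972 and 599.6 (0.52, SE 0.30). Bmp1, the protease that trims procollagen so that fibrils can form, had 544 and 601 against 299 and 378, below wildtype without overlap (-0.74, SE 0.22). Loxl3, a lysyl oxidase, had 201 and 204 against 176 and 133 (-0.37, SE 0.23).

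Of 10 tested proteoglycan genes, 3 lay above and 3 below wildtype without overlap (30% and 30%, against 14.5% and 18.6% of all tested genes). Vcan, the large proteoglycan versican, had 61.4 and 74.7 against 184 and 151 (log2 difference 1.12, SE 0.22). On the wildtype arrays alone Vcan fell below the brightness cut, so it was tested only because its Sox17+/- signals were higher. Fmod and Podn, small leucine-rich proteoglycans, had log2 differences of 0.88 (SE 0.33) and 0.79 (SE 0.32), both without overlap. Prelp, another of this family, had 358 and 324 against 191 and 295 (-0.49, SE 0.27). The members of this family therefore lay on both sides of wildtype.

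Of 6 tested microfibril partners 1 lay above and 2 below wildtype without overlap (16.7% and 33.3%, against 14.5% and 18.6% of all tested genes). Mfap2, a microfibril component, had 552 and 518 against 403 and 420.3 (log2 difference -0.36, SE 0.20). Emilin1, which sits between elastin and microfibrils, had 881 and 940 against 757 and 697 (-0.32, SE 0.20). Ltbp1 and Ltbp3, which anchor latent TGF-beta to microfibrils, had 0.16 (SE 0.20) and 0.16 (SE 0.22). Emilin1 and Mfap2 thus lay on the same side as Fbln5 and Eln, and Ltbp1 and Ltbp3 did not.

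Of 14 tested matrix receptors 1 lay above and 4 below wildtype without overlap (7.14% and 28.6%, against 14.5% and 18.6% of all tested genes). The 4 were Dag1, the laminin receptor dystroglycan, with a log2 difference of -0.35 (SE 0.21), Itga8 at -0.33 (SE 0.25), Itga3, a laminin-binding integrin chain, at -0.27 (SE 0.22), and Itgb5 at -0.27 (SE 0.21). The receptor above wildtype was Itgb1, the beta chain that pairs with Itga3 and Itga8, with 2893 and 3172 against 3709 and 3390.3 (chosen after its values were seen). At an unadjusted limma p under 0.05 there were 0 receptors in either direction.

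Of 14 tested matrix proteases and their inhibitors 3 lay above and 3 below wildtype without overlap (21.4% each way, against 14.5% and 18.6% of all tested genes). The gelatinases Mmp9 and Mmp2 had log2 differences of -0.40 (SE 0.26) and -0.38 (SE 0.25), and the protease inhibitors Timp2 and Timp3 had -0.33 (SE 0.23) and 0.33 (SE 0.22). Of 16 tested genes of the TGF-beta pathway, a main known inducer of collagen, 2 lay above and 1 below wildtype without overlap (12.5% and 6.25%, against the same 14.5% and 18.6%). Smad7, its inhibitory feedback gene, had 238 and 129 against 361 and 311 (0.87, SE 0.32). Ccn2, a matricellular target, had 378 and 223 against 731 and 369, where the groups overlapped (0.81, SE 0.42). Postn, another target, had 1453 and 1035 against 1657 and 1577 (0.39, SE 0.25), and Tgfbi had 697 and 763 against 580 and 544 (-0.37, SE 0.20). These targets did not share a direction.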

How the data were processed

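The values were probe set intensity values (signals) on a linear scale, deposited by the authors. The submitters' processing notes name MAS5 as the tool, and the labels give 10 ug of total RNA per array. Their trimmed mean (2% at each end) was 500 on every array, and MAS5 signals of dim probe sets are noisy. Of 45101 probe sets 64 controls were left out, and the brighter 50% by mean log2(signal + 16) were tested. The fit had genotype alone (lmFit and eBayes of limma 3.58.1, under R 4.3.3; two-sided, residual df 2, prior df 3.24), with Benjamini-Hochberg adjustment over 22519 probe sets. The code was tested on simulated data. SDs are over 2 arrays. The members and gene lists were chosen with earlier results of these data known. Named were Sox17, the matrix genes and, per pathway list, the 4 with the smallest p. Marker genes named beside results were chosen after their values were seen. Genes came from the platform annotation, and 4 listed matrix genes were not analysed here. Arrays with the same number were alike in how they departed from the mean of their genotype (r = 0.383, 22519 probe sets), and their scan names share a code, but the labels do not say that it marks a shared litter or batch, so it was a block only in an alternative. Alternatives were pseudocounts of 1 and 64, other filters, scalings and priors, the mean over probe sets, and leaving out each array. Promoter windows covered 250 bases before the start and matched 44 of 62 genes.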

Additional observations from a re-analysis of the deposited data

How the results depend on the processing

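No matrix gene passed limma's adjusted threshold under any alternative that gave a test, and the lowest adjusted p of a member was 0.449 (without wildtype array 2), with the other alternatives at 0.579 or above. With the array number as a replicate block the lowest was 0.579, 0 probe sets passed, and the count at an unadjusted p under 0.05 went from 923 to 1693. Over the whole array 5 probe sets passed with median centring and 3 with a trended, robust prior. With no filter the fibrillar median was -0.072 and its gap to the basement membrane genes -0.25, among the brighter 25% of probe sets -0.027 and -0.22, and with each gene's probe sets averaged -0.074 and -0.25. Leaving out 1 array gave -0.26 to -0.092 for the fibrillar median and 0.094 to 0.25 for the basement membrane median. With no filter, 15 of 62 members lay below wildtype without overlap. The 26 dim members added 6 below and 3 above to the 9 below and 11 above among those tested. Among the brighter 25% of probe sets, 7 of 17 members lay above and 2 below. The share over all genes was not taken under these filters. Leaving out 1 array gave 15 to 19 of 36 above and 10 to 16 below, as fewer arrays overlap less often. The shares of all tested genes were then 29.2% to 31.4% above and 34.6% to 37.7% below. These counts were chosen after seeing the data.

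Leaving out 1 array cannot turn the sign of a gene whose groups do not overlap, as with 11 members above and 9 below wildtype. Of the 36 tested members 22, those without overlap included, kept their sign when any 1 array was left out. The share of all tested genes that keep their sign was not taken. The members whose sign turned had ranges of -0.13 to 0.91 (Col12a1), -0.35 to 0.0064 (Col13a1), -0.36 to 0.13 (Col14a1), -0.52 to 0.042 (Col16a1), -0.51 to 0.15 (Col18a1), -0.15 to 0.26 (Col1a1), -0.24 to 0.69 (Col22a1), -0.084 to 0.12 (Col3a1), -0.24 to 0.10 (Col5a2), -0.047 to 0.35 (Col7a1), -0.12 to 0.22 (Col9a1), -0.0011 to 0.22 (Fn1), -0.35 to 0.69 (Lamb2) and -0.014 to 0.41 (Nid1). With each gene's probe sets averaged the sign turned for Nid1 (-0.27), Lamc1 (-0.29), Col1a2 (0.051), Col1a1 (-0.13), Timp2 (0.019), Ltbp1 (-0.069) and Dag1 (0.080). That alternative gives dim probe sets the same weight as bright ones. The other causes were not tested. The number of arrays, 2 per genotype, limits the precision of every value. Col22a1, Col12a1, Lamb2 and Lama1, all towards the dim end of those tested, had the largest SEs of the members (0.33 to 0.39). Col5a3, the tested member nearest the filter, had an SE of 0.21.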
